A study of Mus musculus with 9 samples.

Results

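Complement is the cascade of blood and tissue proteins that tags microbes and dying cells for uptake and attracts leukocytes. The 9 genes described here encode components and receptors of this system, and they were taken by name (C3, C3ar1, C5ar1, C5ar2, C1qa, C1qb, C1qc, Cfp and Cfb) from the 55274 gene identifiers of each expression table. All 9 were among the 13493 genes with at least 1 FPKM (fragments normalized for transcript length and sequencing depth) in at least 3 of the 9 libraries, which are the genes that were tested.

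The study asked how the NUP98-NSD1 fusion, in which a nucleoporin is fused to the histone methyltransferase NSD1, and mutated NRAS act together in leukemia. RNA-seq was made from mouse bone marrow cells transduced with retroviral vectors, with 3 libraries for each of 3 groups. NRASG12D cells carried the mutant NRAS in a vector with a blue fluorescent protein, NUP98-NSD1 cells carried the fusion in a vector with a green fluorescent protein, and NUP98-NSD1+NRASG12D cells carried both. In all groups the donors were young adult female C57BL/6J mice treated with 5-fluorouracil (150 mg/kg), which depletes dividing cells, and marrow was taken 4 days later. The cells were stimulated for 48 h with human IL-6, mouse IL-3 and mouse stem cell factor before they were transduced, sorted by fluorochrome and expanded. Both inserts were driven by the constitutive MSCV promoter, and no cells with an empty vector or without a vector were compared here. The paper describes the NRASG12D cultures as made up largely of mast cells positive for the IgE receptor, so in a comparison with them the genotype and the cell type cannot be told apart. It also reports that immature myeloid cells were a larger part of the cultures with both inserts than of those with the fusion alone. The same limit therefore applies between the groups with the fusion.

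C1q, built from the 3 chains C1qa, C1qb and C1qc, recognizes antibody complexes and dying cells and starts the classical pathway, and macrophages are a main source of it. C3 is the central component, whose cleavage is common to all pathways, while factor B (Cfb) supplies the protease of the alternative pathway and properdin (Cfp) stabilizes it. The fragments C3a and C5a act on C3ar1 and C5ar1 of myeloid cells, and C5ar2 binds C5a without coupling to G proteins.

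All 9 genes lie on the minus strand of the genome build GRCm38. C1qb (ENSMUSG00000036905.8, 136880129 to 136886187), C1qc (ENSMUSG00000036896.5, 136889804 to 136893065) and C1qa (ENSMUSG00000036887.5, 136895917 to 136898803) form a cluster on chromosome 4, with 3616 and 2851 bases between neighbours. C5ar2 (ENSMUSG00000074361.10, 16234585 to 16244154) and C5ar1 (ENSMUSG00000049130.6, 16246743 to 16259540) lie 2588 bases apart on chromosome 7. C3 (ENSMUSG00000024164.15, 57203970 to 57228136) and Cfb (ENSMUSG00000090231.10, 34856374 to 34862518) are on chromosome 17. C3ar1 (ENSMUSG00000040552.8) is on chromosome 6 from 122847138 to 122856161, and Cfp (ENSMUSG00000001128.7) is on chromosome X from 20925454 to 20931555.

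The DNA before the start sites is shown for C1qb and C3, whose NRASG12D levels lay apart from both groups with the fusion, and for C5ar2, whose level pattern differed from that of its neighbour C5ar1. Shorter matches are shown for C1qc and for the receptors C5ar1 and C3ar1. RefSeq promoter sequences of build GRCm38.p6 were found for 7 of the 9 members, C1qa and Cfb being the others, with 2 start sites for C5ar2. In windows of 300 bases (250 before and 50 after the start), 4 motifs were searched on both strands. AGGAAGT, bound by ETS factors such as PU.1, was present in 9.35% of 32817 mouse promoters of this length. TTGCGNAA of the C/EBP family was present in 0.798%, TGANTCA of the AP-1 family in 7.81%, and GAAA repeated after any 2 bases, for the interferon regulatory factors, in 3.43%. The searched motifs do not contain each other, and a match is a description and not a binding site.

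The stretches of 250 bases before the start sites of C1qb (chr4:136886201-136886450), C3 (chr17:57228137-57228386) and the upstream start of C5ar2 (chr7:16244155-16244404) read as follows from 5′ to 3′ on the minus strand, with motif matches in capitals.
C1qb: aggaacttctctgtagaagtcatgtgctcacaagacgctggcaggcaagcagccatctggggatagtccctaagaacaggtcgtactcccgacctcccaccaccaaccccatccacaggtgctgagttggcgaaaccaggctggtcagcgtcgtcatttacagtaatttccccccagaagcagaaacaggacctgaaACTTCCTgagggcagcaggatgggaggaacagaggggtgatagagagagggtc
C3: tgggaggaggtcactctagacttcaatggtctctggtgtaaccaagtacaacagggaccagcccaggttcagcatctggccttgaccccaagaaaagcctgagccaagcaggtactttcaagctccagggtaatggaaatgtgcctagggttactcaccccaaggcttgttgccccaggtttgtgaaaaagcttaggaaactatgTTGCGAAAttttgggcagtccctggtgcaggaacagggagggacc
C5ar2: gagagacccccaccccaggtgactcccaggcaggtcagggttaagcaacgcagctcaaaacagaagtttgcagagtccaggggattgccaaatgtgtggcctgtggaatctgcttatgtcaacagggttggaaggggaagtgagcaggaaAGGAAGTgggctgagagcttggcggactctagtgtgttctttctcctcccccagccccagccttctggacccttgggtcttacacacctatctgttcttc

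The capitals mark the ETS motif on the opposite strand for C1qb, first base at -53 from the start site, the C/EBP motif for C3, at -45, and the ETS motif for C5ar2, at -100. For C1qc, C5ar1 and C3ar1 only the match with 10 bases on each side is given. These are chr4:136893093-136893119 for C1qc (-195), chr7:16259512-16259538 and chr7:16259394-16259420 for C5ar1 (-190 and -72), and chr6:122856163-122856189 for C3ar1 (-22).
C1qc: gacggcagacACTTCCTcattttggca
C5ar1, distal: aaactccaaaACTTCCTtcagaagagg
C5ar1, proximal: ggggccagagACTTCCTtccttttcca
C3ar1: gtttaagaggTGACTCAtggaaaggcc

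The C1qc and C5ar1 matches are the ETS motif on the opposite strand, and the C3ar1 match is the AP-1 motif. ETS matches thus stood before RefSeq start sites of C1qb, C1qc, C5ar1 and C5ar2, whose levels followed different patterns, as described next. The RefSeq start of C5ar1 (16259338) lies inside the gene span given above, so both of its matches fall within that span. The window of Cfp and the downstream start of C5ar2 held none of the 4 motifs.

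Depth was estimated at 22400000 to 35300000 fragments per library from the steps between low FPKM values. At these depths 3 fragments correspond to 0.0165 to 0.129 FPKM over the members with C3 at the low end and C1qa at the high end, a limit that covers counting error only. Nras as a check of the labels was at 348 to 479 FPKM in NRASG12D, 47.7 to 51.2 FPKM in NUP98-NSD1 and 245 to 701 FPKM in NUP98-NSD1+NRASG12D libraries. Some libraries stood apart within their group. In NUP98-NSD1+NRASG12D cells replicate 2 had the highest and replicate 1 the lowest FPKM for all 9 members, and values without a library are given below where leaving it out changed a member's call or direction. Values listed at 0 can be failed estimates, since 11 genes had over 1000 FPKM in a library and 0 in another. NRASG12D replicate 2 had a summed FPKM of 17 over 12 neutrophil markers and of 23 over 10 dendritic cell markers, against 0.751 to 1.54 and 1.46 to 2.43 in the other 2 libraries. In the dendritic list Cd74 alone had 16.6 FPKM there, while Flt3 had 0.0213 FPKM and Cd209a was listed at 0. The 14 macrophage markers summed to 59.4 FPKM in replicate 2, against 48.7 and 43.2 FPKM in replicates 1 and 3. The 8 monocyte markers went the other way, with 21.7 FPKM in replicate 2 against 25 and 26.6 FPKM. How cultures or animals map to the 3 libraries of a group is not described, so the p-values measure the spread between these libraries, which may be technical.

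**Figure D1:**
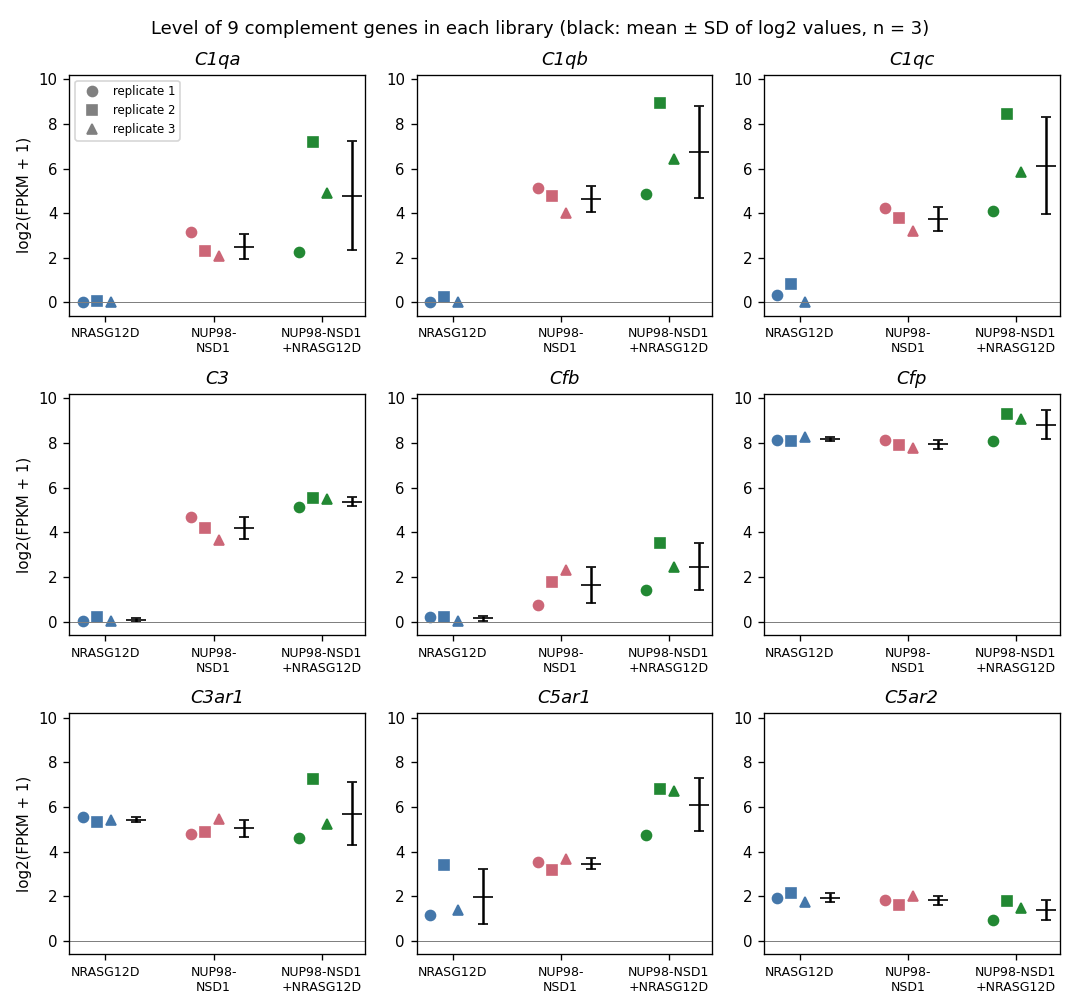
Level of each of the 9 complement genes as log2(FPKM + 1) in the 3 libraries of each group, with circles, squares and triangles for replicates 1, 2 and 3. Black bars are the mean ± SD (n = 3) and are left out where a library is listed at 0. The C1q chains and C3 are near 0 in the 3 NRASG12D libraries, while the ranges of Cfp, C3ar1 and C5ar2 overlap between all groups.

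The 3 C1q chains were below 1 FPKM or listed at 0, which may be a failed estimate, in NRASG12D cells and were present in every library with the fusion. C1qb, which had the highest level of the chains, was listed at 0 in NRASG12D replicates 1 and 3 and had 0.173 FPKM in replicate 2. It had 34, 26.2 and 15.1 FPKM in the NUP98-NSD1 libraries, and 27.9, 485 and 85.3 FPKM in the NUP98-NSD1+NRASG12D libraries. The NRASG12D libraries thus lay below all 6 libraries with the fusion, whereas the 2 groups with the fusion overlapped. The log2 difference on the log2(FPKM + 1) scale was 4.56 (SE 0.27, limma adjusted p = 0.000112) for NUP98-NSD1 against NRASG12D and 6.66 (SE 0.91, adjusted p = 0.00174) for NUP98-NSD1+NRASG12D against NRASG12D. NUP98-NSD1+NRASG12D cells did not pass the test against NUP98-NSD1 cells, at 2.10 (95% interval -0.14 to 4.34, adjusted p = 0.231).

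C1qc was at 0.276 and 0.769 FPKM in NRASG12D replicates 1 and 2 and listed at 0 in replicate 3. In NUP98-NSD1 cells it was at 18, 12.9 and 8.15 FPKM, and in NUP98-NSD1+NRASG12D cells at 16.2, 346 and 56.4 FPKM. As for C1qb, replicate 1 of the double group fell within the NUP98-NSD1 range and replicates 2 and 3 lay above it. The log2 difference was 3.36 (SE 0.31, adjusted p = 0.000536) for NUP98-NSD1 and 5.74 (SE 0.98, adjusted p = 0.00441) for NUP98-NSD1+NRASG12D, each against NRASG12D. Between the groups with the fusion it was 2.38 (95% interval 0.02 to 4.74, adjusted p = 0.2).

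C1qa was listed at 0 in NRASG12D replicates 1 and 3 and had 0.0303 FPKM, about 1 fragment, in replicate 2. Its FPKM was 7.84, 3.9 and 3.17 in NUP98-NSD1 and 3.84, 144 and 29.1 in NUP98-NSD1+NRASG12D cells. Its pattern was that of the other chains at a lower level. The log2 difference from NRASG12D was 2.48 (SE 0.27, adjusted p = 0.000964) in NUP98-NSD1 and 4.77 (SE 1.08, adjusted p = 0.0139) in the double group. The groups with the fusion differed by 2.29 (95% interval -0.36 to 4.94, adjusted p = 0.271). These differences from a level near 0 depend on the value added before the logarithm. With 0.1 in place of 1, that of C1qa between NUP98-NSD1 and NRASG12D cells became 5.43, C1qc 5.29 and C1qb 7.42.

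The shares of the chains in the summed FPKM of the 3 genes varied less across the libraries with the fusion than the sum itself. The sum was 59.9, 43 and 26.5 FPKM in NUP98-NSD1 and 48, 975 and 171 FPKM in NUP98-NSD1+NRASG12D cells. C1qb made up 56.8% to 60.9% of it in the first group and 49.8% to 58.3% in the second. C1qc made up 30% to 30.8% and 33% to 35.5%, and C1qa 9.07% to 13.1% and 8.02% to 17%. The C1qc shares of the 2 groups did not overlap, and the C1qa share differed up to 2.12 times within the double group. Within NUP98-NSD1+NRASG12D cells the highest library exceeded the lowest 37.4 times for C1qa, 21.4 times for C1qc and 17.4 times for C1qb, against 2.21 to 2.47 times within NUP98-NSD1 cells. The absence of a call between these groups went with a wide spread in the double group. Without NUP98-NSD1+NRASG12D replicate 1 the differences were 3.55 for C1qa, 3.04 for C1qb and 3.39 for C1qc, with adjusted p = 0.0265, 0.0448 and 0.0363. Without replicate 2 they were 1.09, 1.01 and 1.22, and none passed the threshold.

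Macrophage markers moved with the C1q chains. The 14 markers, of which Gpnmb, Cd68 and Adgre1 had the highest mean FPKM, summed to 43.2 to 59.4 FPKM in NRASG12D libraries, 295 to 366 FPKM in NUP98-NSD1 libraries and 550, 3925 and 2256 FPKM in NUP98-NSD1+NRASG12D replicates 1, 2 and 3. Of the 11 tested, 10 were higher in NUP98-NSD1 and 10 in NUP98-NSD1+NRASG12D than in NRASG12D, against 42.2% and 24.2% of all tested genes. Between the 2 groups with the fusion 0 of 11 passed the test by limma. Of all tested genes 2.3% were higher and 6.31% lower there. Timd4, a marker of resident tissue macrophages, was listed at 0 in all 6 libraries with the fusion. In bulk RNA more cells of a type and more RNA per cell cannot be told apart, and the part of macrophage content in the C1q result was not tested.

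**Figure D2:**
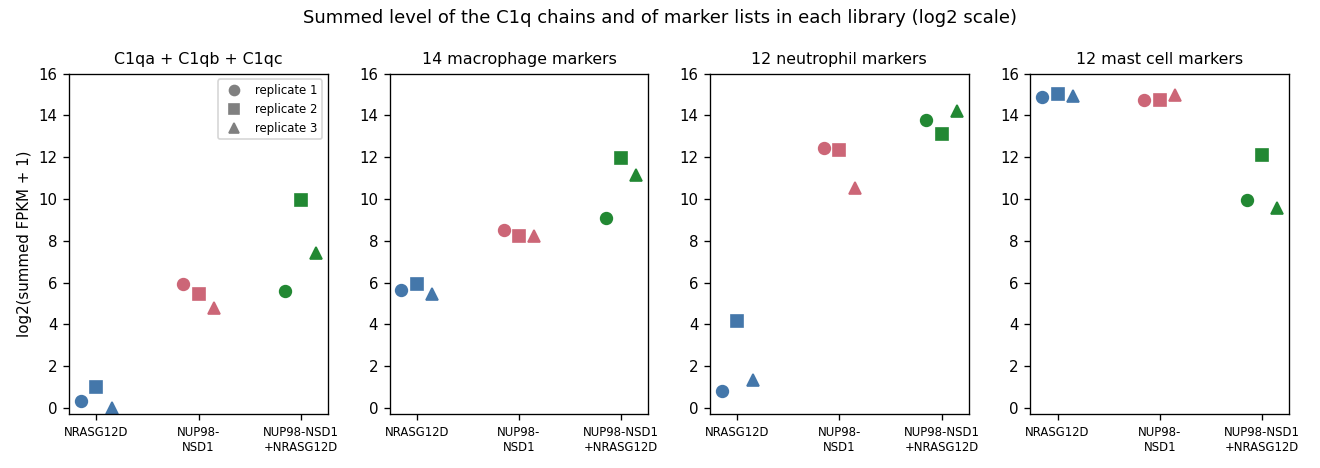
Summed FPKM of the 3 C1q chains and of the macrophage, neutrophil and mast cell marker lists in each library, as log2(summed FPKM + 1), with replicate numbers as symbols. In NUP98-NSD1+NRASG12D cells replicate 2 is highest and replicate 1 lowest for both the C1q sum (975 and 48 FPKM) and the macrophage sum (3925 and 550 FPKM). Replicate 2 has the lowest neutrophil sum (8974 FPKM), but the neutrophil markers differ in their order. Within the group Elane (994 FPKM) and Prtn3 (726 FPKM) are lowest in replicate 2, and Ltf (297 FPKM) and Mmp9 (10.3 FPKM) are highest there.

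C3 was nearly silent in NRASG12D cells and separated all 3 groups. Its FPKM was 0.0159, 0.138 and 0.0256 in NRASG12D, which is about 1.97, 25.1 and 2.94 fragments, 24.6, 17.2 and 11.8 in NUP98-NSD1 and 34.4, 45.1 and 43.5 in NUP98-NSD1+NRASG12D cells. No library of one group fell within the range of another. The means ± SD (n = 3) were 0.06 ± 0.0681, 17.9 ± 6.41 and 41 ± 5.74 FPKM. The log2 difference from NRASG12D was 4.10 (SE 0.24, adjusted p = 0.000108) for NUP98-NSD1 and 5.30 (SE 0.17, adjusted p = 1.76e-05) for NUP98-NSD1+NRASG12D, and both passed the test under every alternative that was run.

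From NUP98-NSD1 to the double group the difference in C3 was 1.20 (SE 0.27, adjusted p = 0.0413), a 2.3-fold ratio of mean FPKM. It stayed between 0.95 and 1.45 when any library was left out. The adjusted p was above the threshold without NUP98-NSD1 replicate 2 (0.139) or 3 (0.118) and without NUP98-NSD1+NRASG12D replicate 2 (0.0914) or 3 (0.123). With the replicate number as a block it was 0.0672. The exact permutation p was 0.1, the smallest that 3 libraries against 3 allow.

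C3 differed from the C1q chains in its spread within the double group. Its highest library exceeded the lowest 1.31 times, the smallest such ratio among the 9 genes in that group, against 17.4 to 37.4 times for the C1q chains. The C1q sum was 2.24 to 2.51 times the FPKM of C3 in the NUP98-NSD1 libraries, but 1.39, 21.6 and 3.92 times in the NUP98-NSD1+NRASG12D libraries. Neutrophil markers, 12 genes that were all higher in both groups with the fusion than in NRASG12D cells, summed to 0.751 to 17 FPKM in NRASG12D, 1496 to 5630 FPKM in NUP98-NSD1 and 8974 to 19143 FPKM in NUP98-NSD1+NRASG12D libraries. Ltf and Camp, which encode neutrophil granule proteins, were listed at 0 in all NRASG12D libraries, again a possible failed estimate. Against NRASG12D, 42.2% of all tested genes were higher in NUP98-NSD1 and 24.2% in the double group. Of the 12 markers 5 were higher in NUP98-NSD1+NRASG12D than in NUP98-NSD1 cells, against 2.3% of all tested genes. Their part in the C3 result was not tested.

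Cfb had low levels in all groups and the lowest in NRASG12D cells. It was at 0.145, 0.156 and 0.0188 FPKM in NRASG12D, 0.694, 2.46 and 4.04 FPKM in NUP98-NSD1 and 1.69, 10.6 and 4.43 FPKM in NUP98-NSD1+NRASG12D cells. All libraries with the fusion lay above the NRASG12D libraries, and the 2 groups with the fusion overlapped. Cfb was higher than in NRASG12D by 1.48 (SE 0.37, adjusted p = 0.0137) in NUP98-NSD1 and by 2.32 (SE 0.49, adjusted p = 0.0101) in the double group. It did not pass the test between them, at 0.84 (95% interval -0.58 to 2.26, adjusted p = 0.475). The call for NUP98-NSD1 was lost without NRASG12D replicate 3 (adjusted p = 0.0507) or NUP98-NSD1 replicate 2 (0.0508), with quantile normalization (0.91, adjusted p = 0.139), with no filter on low values (0.0883) and in the fit of all 9 libraries (0.0682). The call for the double group was lost with no filter (0.07).

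The order of Cfb over the NUP98-NSD1 replicates was the reverse of that of C3 and the C1q chains, which were highest in replicate 1 and lowest in replicate 3. As a result the C3 to Cfb ratio of FPKM was 35.4, 6.98 and 2.92 in these 3 libraries. The value of Cfb carries a further limit, because 73% of its stretches of 50 bases also occur in Gm20547, an annotated gene that overlaps it on the same strand. Gm20547 had at most 0.000132 FPKM in any library, but reads could have been split between the 2 genes.

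Cfp was the most abundant of the 9 genes and was expressed in every library. It was at 283, 275 and 308 FPKM in NRASG12D, 285, 238 and 219 FPKM in NUP98-NSD1 and 270, 625 and 548 FPKM in NUP98-NSD1+NRASG12D cells. The first 2 groups overlapped, and in the double group replicate 1 was within their range and replicates 2 and 3 were above it. Mean FPKM ± SD (n = 3) was 289 ± 17.4, 247 ± 33.9 and 481 ± 187. The log2 difference was -0.23 (95% interval -0.50 to 0.04, adjusted p = 0.128) for NUP98-NSD1 and 0.65 (95% interval -0.11 to 1.41, adjusted p = 0.148) for NUP98-NSD1+NRASG12D against NRASG12D. Between the groups with the fusion it was 0.88 (95% interval 0.08 to 1.67, adjusted p = 0.165). Without NUP98-NSD1+NRASG12D replicate 1 this last difference was 1.25 and passed the test (adjusted p = 0.0127), and that from NRASG12D was 1.02 and passed too (adjusted p = 0.00289). With array weights the difference from NRASG12D was 0.87 (adjusted p = 0.007). Without NUP98-NSD1 replicate 1 Cfp was called lower in NUP98-NSD1 than in NRASG12D (-0.33, adjusted p = 0.0458).

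C5ar1, the main receptor for C5a, was highest in NUP98-NSD1+NRASG12D cells. It was at 1.21, 9.44 and 1.59 FPKM in NRASG12D, 10.7, 7.96 and 11.6 FPKM in NUP98-NSD1 and 25.4, 112 and 105 FPKM in NUP98-NSD1+NRASG12D cells. Every library of the double group lay above the 6 others, and NRASG12D replicate 2 fell within the NUP98-NSD1 range. Mean FPKM ± SD (n = 3) was 4.08 ± 4.64, 10.1 ± 1.9 and 80.7 ± 48. The double group was higher than NRASG12D by 4.12 (SE 0.76, adjusted p = 0.006) and higher than NUP98-NSD1 by 2.63 (SE 0.55, adjusted p = 0.0334), an 8-fold ratio of mean FPKM in the second case.

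The call for C5ar1 between the groups with the fusion kept its size but not its side of the threshold when libraries were left out. The difference ranged from 2.27 to 3.32. The adjusted p was 0.00407 without NUP98-NSD1+NRASG12D replicate 1 and 0.0749 to 0.118 in the other 5 fits, those without NUP98-NSD1+NRASG12D replicate 2 or 3 or any NUP98-NSD1 replicate. The call was also lost with median-ratio scaling and with no filter on low values. NUP98-NSD1 against NRASG12D gave 1.49 (95% interval 0.19 to 2.79, adjusted p = 0.0566), which did not pass. Without NRASG12D replicate 2, which had higher neutrophil, dendritic and macrophage sums but a lower monocyte sum, the difference was 2.20 (adjusted p = 0.00111). It also passed with a filter of 5 FPKM in place of 1.

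C5ar2, whose gene neighbours C5ar1, did not follow it. It was at 2.81, 3.38 and 2.35 FPKM in NRASG12D, 2.59, 2.02 and 2.99 FPKM in NUP98-NSD1 and 0.883, 2.46 and 1.75 FPKM in NUP98-NSD1+NRASG12D cells. All 3 groups overlapped, with means ± SD (n = 3) of 2.84 ± 0.516, 2.53 ± 0.49 and 1.7 ± 0.791 FPKM. The log2 differences were -0.12 (95% interval -0.50 to 0.25), -0.55 (-1.16 to 0.06) and -0.42 (-1.04 to 0.19) for NUP98-NSD1 against NRASG12D, NUP98-NSD1+NRASG12D against NRASG12D and NUP98-NSD1+NRASG12D against NUP98-NSD1. Their adjusted p-values were 0.542, 0.131 and 0.391. The second was called lower without NUP98-NSD1+NRASG12D replicate 2 (-0.75, adjusted p = 0.045) and with quantile normalization (-0.76, adjusted p = 0.0474). The ratio of C5ar1 to C5ar2 in FPKM was 0.43, 2.8 and 0.68 in NRASG12D, 3.89 to 4.11 in NUP98-NSD1 and 28.8, 45.5 and 59.9 in NUP98-NSD1+NRASG12D libraries, and the 3 groups did not overlap in it. This ratio was not tested. Of the 50-base stretches of C5ar2, 4.39% also occur in transcripts of other genes.

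C3ar1, the C3a receptor, was present in all 3 groups. It was at 45.8, 39.1 and 41.1 FPKM in NRASG12D, 26.2, 28.7 and 43 FPKM in NUP98-NSD1 and 23.1, 153 and 37.2 FPKM in NUP98-NSD1+NRASG12D cells. All groups overlapped, and replicate 2 of the double group stood above every other library. The log2 differences were -0.38 (95% interval -0.81 to 0.04, adjusted p = 0.112) for NUP98-NSD1 and 0.28 (-1.19 to 1.76, adjusted p = 0.741) for NUP98-NSD1+NRASG12D, each against NRASG12D, and 0.67 (-0.87 to 2.20, adjusted p = 0.622) between the groups with the fusion. Without NUP98-NSD1+NRASG12D replicate 2 the last 2 turned to -0.50 and -0.12. The first was called lower without NUP98-NSD1 replicate 3 (-0.59, adjusted p = 0.00315) and with array weights (-0.55, adjusted p = 0.00408). After Cfp, C3ar1 had the highest level of the 9 genes in NRASG12D cells, in which C3 itself was almost absent.

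**Figure D3:**
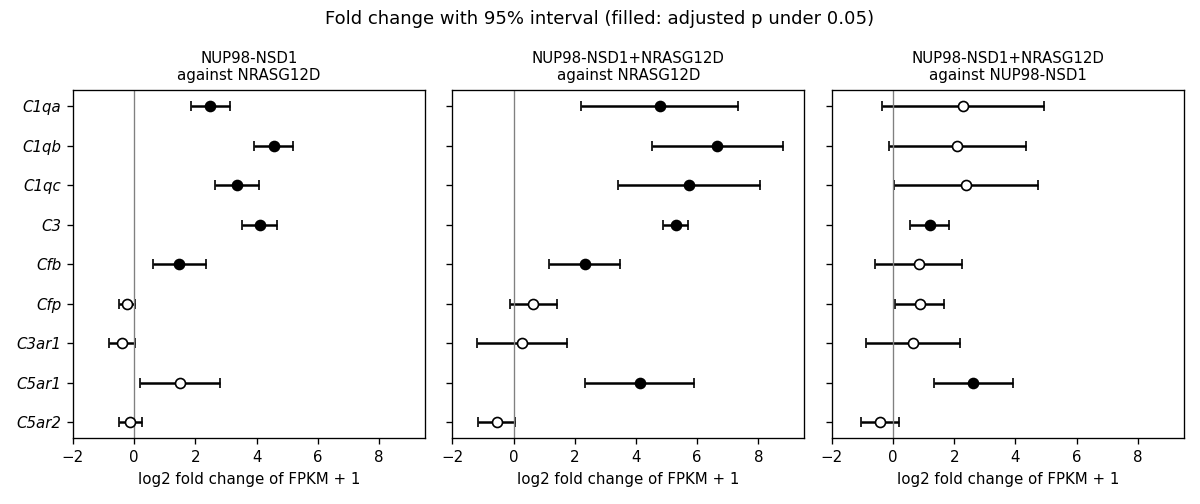
Log2 differences of FPKM + 1 with 95% intervals from limma for the 9 genes in the 3 comparisons, where filled points passed an adjusted p of 0.05. C3, Cfb and the C1q chains are filled in both comparisons with NRASG12D, C5ar1 in both comparisons of the double group, and C3 in all 3.

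Counted together, 5 of the 9 genes were called in NUP98-NSD1 against NRASG12D, all higher in NUP98-NSD1. In that comparison 52.1% of all tested genes were called, 42.2% higher and 9.98% lower, so the count of members is near the background. In NUP98-NSD1+NRASG12D against NRASG12D 6 of the 9 were called, all higher, against 38.3% of all tested genes called, 24.2% higher and 14.1% lower. In NUP98-NSD1+NRASG12D against NUP98-NSD1 2 of the 9 were called, both higher, against 8.61% called, 2.3% higher and 6.31% lower. The same 5, 6 and 2 genes were those whose groups did not overlap in the higher direction, a pattern seen in 50.7%, 38.7% and 11.6% of all tested genes. The median log2 difference over the 9 members was 1.49, 4.12 and 1.20, beside 0.27, 0.23 and -0.06 over all tested genes.

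The first 2 of these comparisons share the NRASG12D libraries and the last shares libraries with both. Median-ratio scaling between libraries moved the median of all tested genes to -0.01, 0.03 and 0.03. It moved the share of calls that were higher from 80.9% to 49.3% in NUP98-NSD1 against NRASG12D and from 63.1% to 50.9% in NUP98-NSD1+NRASG12D against NRASG12D, and quantile normalization moved them to 43.2% and 41.3%. The direction of every member in every comparison was the same under both scalings. Relative to the median of all tested genes, C3ar1 was at -0.66 and Cfp at -0.50 in NUP98-NSD1 against NRASG12D, and both were called lower there after either scaling.

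**Figure D4:**
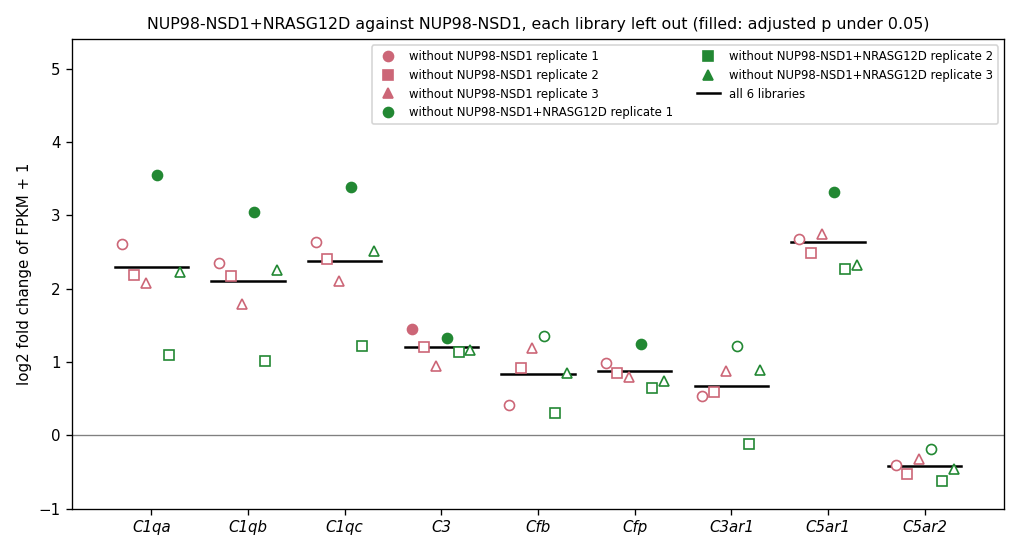
Log2 difference for the 9 genes between the double group NUP98-NSD1+NRASG12D and the NUP98-NSD1 group when each of the 6 libraries is left out, with black bars for the fit on all 6 and filled symbols for an adjusted p under 0.05. The C1q chains move between 1.01 and 3.55 depending on whether replicate 2 or replicate 1 of the double group is left out, while C3 stays between 0.95 and 1.45.

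Genes outside the 9 members whose levels followed each member most closely over the 9 libraries were ranked by Pearson's r of log2(FPKM + 1), as a description, since libraries of a group share their culture type. For C1qb they were Nlrc5 (r = 0.994), Slc37a2 (0.993) and the macrophage marker Trem2 (0.992), for C1qc Ccl12 (0.995), Atp2b1 (0.990) and Slc37a2 (0.990), and for C1qa Slc39a2 (0.995), Tlr7 (0.993) and Lipa (0.987). For C3 they were Pglyrp1 (0.998), Sema4a (0.997) and Igsf6 (0.997), none of which was listed for a C1q chain. Pglyrp1, which encodes a peptidoglycan-binding protein of neutrophil granules, had 0.089 to 0.446 FPKM in NRASG12D, 29.7 to 96.4 FPKM in NUP98-NSD1 and 180 to 236 FPKM in NUP98-NSD1+NRASG12D libraries.

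Cfb was followed most closely by Ifi213 (r = 0.980), Ddx60 (0.973) and Xaf1 (0.970). Xaf1 had 6.83, 12.3 and 22.8 FPKM in NUP98-NSD1 and 23.9, 105 and 40.4 FPKM in NUP98-NSD1+NRASG12D replicates 1, 2 and 3, and Cfb ranked these libraries in the same way within both groups. The genes closest to C5ar1 were Flna (0.985), Cav2 (0.976) and Sh3tc1 (0.974), and C5ar2 was followed by Klhl20 (0.957) and Evi2 (0.944). C3ar1 was followed by Gpr137b-ps (0.977), H2-T22 (0.970) and Tapbp (0.968), and Cfp by Syne1 (0.973), Cyp4v3 (0.970) and Iffo2 (0.970). Among the members, r over the 9 libraries was 0.96 to 0.99 between the C1q chains, 0.95 between C3 and C1qb, -0.36 between C5ar1 and C5ar2, and 0.05 between C3 and C3ar1.

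Other genes of the complement system were mostly low. Of 16 recognition proteins and enzymes of the classical and lectin pathways, 3 were tested. Fcnb, which encodes the lectin pathway recognition protein ficolin-B, was listed at 0 in all NRASG12D libraries, which may be a failed estimate, and had 32.8, 20.8 and 7.72 FPKM in NUP98-NSD1 and 94.2, 84.1 and 91.4 FPKM in NUP98-NSD1+NRASG12D cells. It separated all 3 groups, and the double group was higher than NUP98-NSD1 by 2.29 (SE 0.46, adjusted p = 0.03). That call was lost without NUP98-NSD1 replicate 2 or NUP98-NSD1+NRASG12D replicate 2 or 3 (adjusted p = 0.0637 to 0.0953). Fcna, which encodes ficolin-A, was not tested, with 0.233, 4.35 and 3.92 FPKM in NUP98-NSD1+NRASG12D and at most 0.0816 FPKM in the other libraries. C2, the protease partner of C4b, was higher in NUP98-NSD1 than in NRASG12D by 0.62 (adjusted p = 0.00902) and was at most 2.02 FPKM in any library. Colec12, a collectin of the cell surface, ranged from 2.07 to 163 FPKM within the double group and was not called in any of the 3 comparisons.

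Components of the alternative and terminal pathways outside the members were nearly absent. Of 8, only C8g, a chain of the C8 complex, was tested, and it was higher in NUP98-NSD1 than in NRASG12D by 0.33 (adjusted p = 0.0422), a call kept in 1 of 6 fits with a library left out, that without NUP98-NSD1 replicate 3. C9 of the membrane attack complex had at most 0.197 FPKM. Hc, the gene of C5, had at most 0.239 FPKM, and Cfd, which encodes the factor D that cleaves factor B, was at most 0.141 FPKM. None of these 3 genes reached the level required for testing.

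Most tested regulators, which protect cells from complement, were lower in the groups with the fusion. Of 15, 6 were tested. Cd55, which speeds the decay of C3 convertases, was at 168, 217 and 139 FPKM in NRASG12D, 102, 85.8 and 108 FPKM in NUP98-NSD1 and 4.11, 22.8 and 2.64 FPKM in NUP98-NSD1+NRASG12D cells. Each group lay apart from the next, with a log2 difference of -3.70 (SE 0.65, adjusted p = 0.0211) between the double group and NUP98-NSD1 and of -0.80 (SE 0.17, adjusted p = 0.0081) between NUP98-NSD1 and NRASG12D. Its neighbour in sequence Cd55b, which may share reads with it, differed by -2.63 (adjusted p = 0.0146) in the first of these. Cr1l, which encodes the rodent regulator Crry of C3 activation, was at 69.5 to 79.2 FPKM in NUP98-NSD1 and 36.9 to 43 FPKM in NUP98-NSD1+NRASG12D cells (-0.87, adjusted p = 0.0172). These 3 were the regulators called between the groups with the fusion, where 0 of 6 were higher and 3 were lower, against 2.3% and 6.31% of all tested genes. All 3 calls were lost without any 1 of the NUP98-NSD1 replicates or NUP98-NSD1+NRASG12D replicate 3, with adjusted p-values up to 0.0892 for Cd55, 0.0723 for Cd55b and 0.1 for Cr1l.

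Against NRASG12D, 4 regulators were lower and 1 was higher in NUP98-NSD1, and 5 were lower and 1 was higher in the double group. Among the 4 the call for Cd59b was lost without NRASG12D replicate 3 (adjusted p = 0.0597). Of all tested genes 9.98% were lower and 42.2% higher in the first comparison, and 14.1% and 24.2% in the second. Cd59a, which encodes an inhibitor of the membrane attack complex, was at 18.3 to 30.2 FPKM in NRASG12D, 1.93 to 5.19 FPKM in NUP98-NSD1 and 0.311 to 2.11 FPKM in NUP98-NSD1+NRASG12D cells. Its log2 differences from NRASG12D were -2.49 (adjusted p = 0.00124) and -3.84 (adjusted p = 0.000474). The gene that was higher was Clu, the fluid-phase inhibitor clusterin, at 0.83 to 5.42 FPKM in the libraries with the fusion. It is named because it was the exception, and its call in the double group (1.54, adjusted p = 0.034) was lost without any 1 of the NRASG12D replicates (0.0899 to 0.0918). The 12 mast cell markers summed to 30478 to 33083 FPKM in NRASG12D and 27033 to 32097 FPKM in NUP98-NSD1 libraries. In NUP98-NSD1+NRASG12D replicates 1, 2 and 3 they summed to 980, 4375 and 749 FPKM. Of the 12, 9 were lower in the double group than in NUP98-NSD1, against 6.31% of all tested genes. Cpa3, a mast cell protease gene, was listed at 0 in all NRASG12D libraries, which may be a failed estimate, and had 12564 to 14378 FPKM in NUP98-NSD1 libraries. Without it the sums of the 11 other markers were 30478 to 33083, 13883 to 17719 and 469 to 2554 FPKM, and 6 of the 12 markers were lower and 3 higher in NUP98-NSD1 than in NRASG12D. The part of mast cell content in the level of the regulators was not tested.

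**Figure D5:**
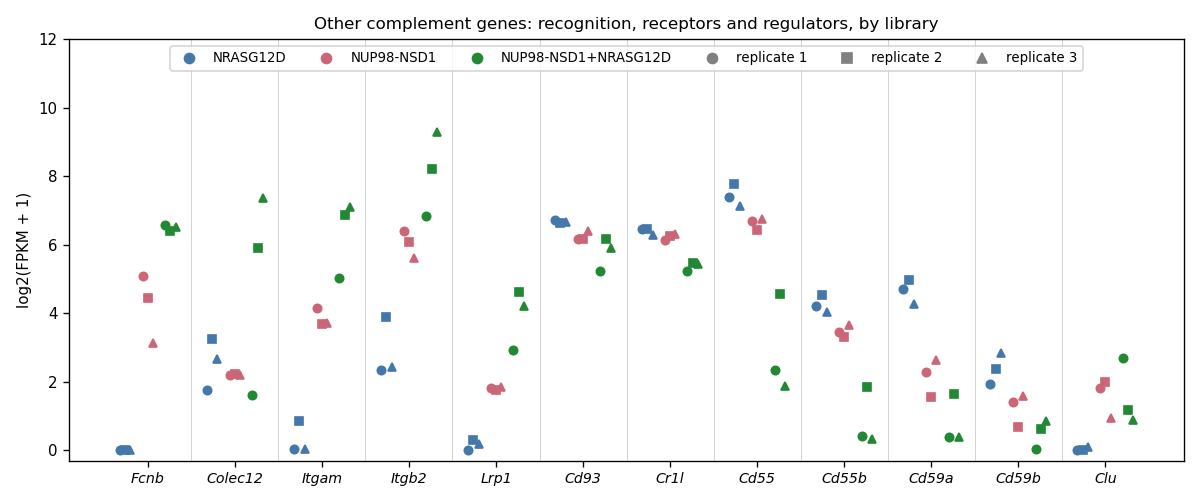
Level of 12 complement genes outside the members as log2(FPKM + 1) in each library, with colours for groups and symbols for replicate numbers. Fcnb, Itgam and Lrp1 are higher and Cd55, Cd55b and Cr1l lower in all 3 NUP98-NSD1+NRASG12D libraries than in all 3 NUP98-NSD1 libraries.

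Of 8 further receptors for C3 fragments or C1q, 7 were tested. Itgam, the CD11b chain of complement receptor CR3, was at 0.0263, 0.796 and 0.0219 FPKM in NRASG12D, 16.8, 12 and 12.1 FPKM in NUP98-NSD1 and 31.6, 117 and 138 FPKM in NUP98-NSD1+NRASG12D cells. Like C5ar1 it was higher in every library of the double group than in every NUP98-NSD1 library, by 2.49 (SE 0.53, adjusted p = 0.0363). Its partner chain Itgb2 was at 47.7 to 84.1 FPKM in NUP98-NSD1 and 113 to 631 FPKM in NUP98-NSD1+NRASG12D cells, and did not pass the test between them (2.09, adjusted p = 0.0764). Lrp1, a scavenger receptor that takes part in the uptake of C1q-tagged cells, was higher by 2.11 (adjusted p = 0.0284). Of the 6 fits with a library left out, the calls for Itgam and Lrp1 held in that without NUP98-NSD1+NRASG12D replicate 1, with adjusted p-values of 0.0848 to 0.133 and 0.0512 to 0.104 in the other 5. Calr and C1qbp, which bind C1q among other roles, were higher in NUP98-NSD1 than in NRASG12D by 0.67 and 1.12 (adjusted p = 0.00582 and 0.00118). Cd93, once described as a C1q receptor, was lower there, at -0.42 (adjusted p = 0.0078). Vsig4, a complement receptor of tissue macrophages, had at most 0.0332 FPKM in any library.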

How the data were processed

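RNA-seq of 9 libraries was used, and the 3 libraries of each group were compared as labelled. Per the labels and methods, paired-end reads (50 bp) were mapped by the authors with STAR 2.7.2a to GRCm38.p6 under the GENCODE M22 annotation, and Cufflinks 2.2.1 quantified the genes. The deposited values are FPKM per gene identifier. How multi-mapped reads and strand were handled is not given in the sources used here. The study's own comparisons used DESeq2 on fragment counts, which were not used here.

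Values were compared as log2(FPKM + 1) over genes that reached 1 FPKM in 3 or more libraries. Each pair of groups was fitted on its own 6 libraries by lmFit and eBayes (with trend) of limma 3.58.1 under R 4.3.3, and p-values were adjusted by Benjamini-Hochberg over the 13493 genes (threshold 0.05). Differences understate the change of low genes. A two-sided exact permutation test of each member cannot go below p = 0.1. Depth was estimated from 3386 single-transcript genes longer than 2500 bp, where 81.5% to 84.9% of low values lay within 0.1 of a whole step. Positions come from GENCODE M21, where 54867 of 54882 shared identifiers had equal coordinates.

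The members and gene lists were chosen with earlier results of these data known. All 9 members are named. From the other complement lists, the 3 genes with the highest mean FPKM and those called between the groups with the fusion are named, and C2, Clu, Cd59a, Cd93, Cfd and Vsig4 were added after their values were seen. For each member the 3 genes with the highest Pearson's r are named, leaving out predicted genes and 1 gene that is not reported here. The replicate numbers come from the sample titles. Deviations from the group means correlated at -0.0277, 0.016 and 0.00211 on average between libraries of equal number in the 3 comparisons, so no pairing was used. Python 3.11.15 with pandas 2.3.3, numpy 2.4.6, scipy 1.17.1 and matplotlib 3.10.9 was used for tables and plots. Alternatives changed the pseudocount, the filter, the scaling, the model or the libraries included. The fits of other complement genes with a library left out and the mast cell sum without Cpa3 were chosen after seeing the data.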

Additional observations from a re-analysis of the deposited data

How the results depend on the processing

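C3, C1qb and C1qc were called against NRASG12D in both groups with the fusion under all 14 alternatives (another pseudocount, filter, scaling, weighting or model, a replicate block, or a library left out). Of the 5 members called in NUP98-NSD1 against NRASG12D, 3 remained called in a single fit of all 9 libraries, where 3065 genes were called in place of 7036, and C1qa (adjusted p = 0.0895) and Cfb (0.0682) were lost there. In NUP98-NSD1+NRASG12D against NRASG12D, 3 members in place of 6 were called with no filter on low values, where more genes were tested, and 2941 to 6327 genes were called when a library was left out (5173 in all 6).

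The comparison of the groups with the fusion depended most on the processing. There the 2 members called became 0 with no filter, 1 with median-ratio scaling, 6 with array weights and 0 to 6 with a library left out, the 6 being C3, C5ar1, Cfp and the C1q chains without NUP98-NSD1+NRASG12D replicate 1. Of all genes, 1162 were called, against 169 with no filter, 2251 in the fit of all 9 libraries, 3500 with array weights and 283 to 2509 with a library left out. C3ar1 changed sign without NUP98-NSD1+NRASG12D replicate 2, and ranged from -0.50 to 0.84 against NRASG12D and from -0.12 to 1.22 against NUP98-NSD1 over the fits with a library left out. The causes of these changes were not tested.

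Whether same-numbered libraries share an animal or culture is not described. Their deviations correlated at -0.177 to 0.16, and 0 of 3 numbers correlated best with their own in each comparison. With 3 libraries per group these values cannot exclude a shared origin. With the replicate number as a block, 6864, 4531 and 801 genes were called in the 3 comparisons, and 1 member in place of 2 between the groups with the fusion, C5ar1. The block changed no other call of a member. Over the members and alternatives, 327 values kept their direction and side of the threshold, 22 lost the call, 21 gained it and 2 changed sign. Depth limits statements on C1qa, C1qb, C1qc, C3 and Cfb in NRASG12D cells, which had an estimated 0 to 32.7 fragments per library (1.16 to 15.2 for Cfb).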

Other observations

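Other cell type markers also differed between the cultures in which the complement genes were measured. The 8 monocyte markers summed to 21.7 to 26.6 FPKM in NRASG12D, 437 to 918 FPKM in NUP98-NSD1 and 1999 to 4488 FPKM in NUP98-NSD1+NRASG12D libraries. Of these 7 were tested, and 3 were higher and 1 was lower in the double group than in NUP98-NSD1. The shares of all tested genes in that comparison were 2.3% higher and 6.31% lower. Of 10 dendritic cell markers 5 were tested, and 0 were called by limma between the groups with the fusion. The sum of the 10 was 1.46 to 23, 326 to 495 and 145 to 729 FPKM in the 3 groups. Cd74 alone had 265 to 407 FPKM in NUP98-NSD1 and 132 to 627 FPKM in NUP98-NSD1+NRASG12D libraries. Zbtb46, Xcr1, Siglech and Cd209a had at most 0.198 FPKM in any library. Basophil and eosinophil markers summed to 406 to 447, 883 to 1640 and 34.5 to 707 FPKM, and 1 of 6 tested (Cd200r3) was lower in the double group than in NUP98-NSD1.

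Erythroid and megakaryocyte markers reached 1239 FPKM in NUP98-NSD1+NRASG12D replicate 2, against 90.2 and 118 FPKM in replicates 1 and 3 of that group and 274 to 566 FPKM in the 6 other libraries. This is the library in which all 9 complement genes were highest within their group. Of 9 lymphoid markers 1 (Nkg7) was tested, and the sum was 0.594 to 1.1, 31.1 to 154 and 8.37 to 306 FPKM. Of 6 stromal and endothelial markers 1 (Pecam1) was tested, and the sum was 104 to 107, 67.3 to 78.4 and 35.9 to 72.2 FPKM.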
